A study of Rattus norvegicus with 8 samples.

Results

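The miR-199 and miR-214 miRNAs were measured in bone around titanium implants in 8 small RNA libraries, 4 from hyperlipidemic and 4 from normal rats. The rows were chosen by name, as every catalogued rat miRNA called miR-199a, miR-199b or miR-214 with any copy number or arm. That gave 4 of the 974 rows of the deposited table: rno-miR-199a-5p, rno-miR-199a-3p, rno-miR-214-3p and rno-miR-214-5p, given below without the prefix for rat. No row named miR-199b was found. The hyperlipidemic rats were male Wistar rats given a high-fat diet for 8 weeks, and the normal rats were male Wistar rats given a normal diet for the same time. All were 12 to 13 weeks old and carried an implant in each femoral shaft. The bone up to 1 mm from the implant was collected 10 days after implantation, free of muscle. The labels give no blood lipid values, and do not say that each library came from a separate rat, so p-values measure the spread between these libraries, which may in part be technical.

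MiRNAs are cut from hairpin precursors, and the 5p and 3p arms of one hairpin can each be loaded into an Argonaute protein and guide it to target transcripts through the seed, bases 2 to 8. In mouse, miR-199a-2 and miR-214 are carried by one long transcript, Dnm3os, which runs antisense within the Dnm3 gene and is active in mesenchymal cells under the control of Twist1. In mouse and human studies miR-214 has been described as restraining osteoblasts, with Atf4 among its targets. The miR-199a arms are abundant in fibroblasts and other connective tissue cells and low in blood cells.

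The sequences show what separates the 4 arms. The RefSeq table for the assembly GRCr8 holds all 4, and they are printed 5′ to 3′ with the seed in capitals, followed by miR-3120, which is annotated on the opposite strand of the miR-214 hairpin.
miR-199a-5p: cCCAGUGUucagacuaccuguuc
miR-199a-3p: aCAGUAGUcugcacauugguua
miR-214-3p: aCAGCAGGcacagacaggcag
miR-214-5p: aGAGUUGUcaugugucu
miR-3120: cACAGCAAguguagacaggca
The 4 arms have 4 different seeds, and none of them is the seed of another of the 544 rno- rows that have a RefSeq mature sequence. MiR-214-5p is annotated with 17 bases, against 23, 22 and 21 for miR-199a-5p, miR-199a-3p and miR-214-3p. The deposited table gives no coordinates, so reads of another hairpin with the same mature sequence could not be told apart. The miR-199a values and their ratios may therefore not come from 1 hairpin alone. In GRCr8 miR-199a-5p lies at chr13:77116255-77116277 and miR-199a-3p at chr13:77116294-77116315 on the plus strand, both in Mir199a2. The 5p arm of miR-214 begins 5340 bases further along the same strand, and the Dnm3 gene spans both hairpins.

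The miR-214 hairpin, chr13:77121645-77121752 on the plus strand of GRCr8, is given with its annotated arms in capitals, 5p before 3p. The capitals follow the annotation only. The lower-case bases just after the 5p capitals lie opposite miR-3120 (chr13:77121672-77121692, minus strand) and belong to neither annotated arm. The few reads of miR-214-5p therefore do not show how much of the 5p side of this hairpin was made.
mir-214 hairpin: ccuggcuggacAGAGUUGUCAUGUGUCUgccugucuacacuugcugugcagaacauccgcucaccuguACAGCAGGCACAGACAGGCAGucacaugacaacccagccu

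Values are in reads per 1000000, RPM, on a scale of the catalogued (rno-) class with no length in it. By its smallest steps the scale rested on 2643454 to 4809727 reads in hyperlipidemic and 990799 to 1748973 reads in normal libraries, without overlap. The rno- rows added up to less than 1000000 RPM in every library. Shares of the rno- signal are percentages of that smaller sum. In normal replicate 3, for example, miR-199a-5p at 30733 RPM was 3.60% of it. RPM are relative: miR-144, miR-451 and miR-486, which are red-cell miRNAs, held 19.2% to 33.1% of the rno- signal in hyperlipidemic and 7.77% to 20.2% in normal libraries. Normal replicates 3 and 4 stood apart, with 8.95% and 7.77% of the signal in the red-cell miRNAs, against at least 17.9% in each of the other 6 libraries. In the white-cell miRNAs miR-142 and miR-223 they had 9.34% and 6.08%, against at least 14.8% in the others. Results for the tested miR-199a and miR-214 arms, their ratios and their summed share are given with and without these libraries. Values of other miRNAs, hairpins and lists, and counts over all rows, are given with them only. In whole bone, fewer cells of a type and less of a miRNA per cell cannot be told apart.

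Both arms of miR-199a were among the abundant miRNAs of implant bone, and the 5p arm had a lower mean in hyperlipidemic libraries, a difference that did not pass the test. MiR-199a-5p stood at 11045, 14423, 10287 and 20230 RPM in hyperlipidemic libraries, against 17212, 17012, 30733 and 38687 RPM in normal libraries. The groups overlapped through hyperlipidemic replicate 4, and the 2 highest values were those of normal replicates 3 and 4. The mean was 13996 ± 4528 RPM for hyperlipidemic and 25911 ± 10667 RPM for normal libraries (SD, n = 4 each). On the log2(RPM + 0.475) scale the difference was -0.85 (SE 0.34, 95% interval -1.63 to -0.07), with an unadjusted p of 0.0356 and a limma adjusted p of 0.248 over 696 rows, where the threshold was 0.05. Without normal replicates 3 and 4 the difference was -0.34 (limma adjusted p = 0.714). Over 15 alternative settings the adjusted p ran from 0.151 to 0.714.

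MiR-199a-3p, the other arm of miR-199a, did not separate the diets. It stood at 13899, 18988, 12044 and 28392 RPM in hyperlipidemic libraries, against 18983, 12423, 24420 and 23089 RPM in normal libraries. The highest and the lowest of the 8 values were both from hyperlipidemic libraries. Its mean was 18331 ± 7322 RPM for hyperlipidemic and 19729 ± 5392 RPM for normal libraries (SD, n = 4 each; log2 difference -0.14, SE 0.33, 95% interval -0.88 to 0.60, limma adjusted p = 0.824). The sign of this small difference depended on the scale and was positive (0.12) with median-of-ratios factors. The interval leaves room for a difference of either sign.

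MiR-214-3p, from the neighbouring hairpin, lay the other way from miR-199a-5p. It stood at 659, 1085, 346 and 844 RPM in hyperlipidemic libraries, against 584, 436, 425 and 258 RPM in normal libraries. Of the hyperlipidemic libraries 3 were above every normal one, while hyperlipidemic replicate 3 was below normal replicates 1, 2 and 3. Its mean was 733 ± 311 RPM for hyperlipidemic and 426 ± 133 RPM for normal libraries (SD, n = 4 each; log2 difference 0.72, SE 0.39, 95% interval -0.16 to 1.61, limma adjusted p = 0.337). It did not pass either. With median-of-ratios factors and rno- rows alone the difference was 0.99 (SE 0.33, unadjusted p = 0.0112, limma adjusted p = 0.187), and on the deposited scale without normal replicates 3 and 4 it was 0.42 (adjusted p = 0.784). Over 15 alternative settings the adjusted p ran from 0.187 to 0.784.

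None of the 3 members tested passed, where 5 of 696 rows, or 0.718%, did. By limma 0 of 396 rno- rows passed, and 62 had an unadjusted p under 0.05. At an unadjusted p under 0.05, 1 of the 3 (miR-199a-5p) was counted, against 17.8% of all rows. In none of the 3 were the groups free of overlap, which was so for 12.6% of all rows. The median log2 difference of the rno- rows was -0.20 on the deposited scale and 0.05 with median-of-ratios factors, a shift that moves every rno- value alike. In the authors' deposited table, the folds of hyperlipidemic over normal are 0.570 for miR-199a-5p, 0.986 for miR-199a-3p and 1.96 for miR-214-3p, with adjusted p-values of 0.443, 0.977 and 0.285. In the authors' deposited table all 4 rows are called unchanged.

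MiR-214-5p was barely detected and was left out of the test by its low values. Whole reads were recovered from the smallest steps of the scale, and it had 2, 3, 1 and 6 reads in hyperlipidemic libraries and 0, 0, 0 and 1 in normal libraries. That is 12 reads of 13942461 for hyperlipidemic libraries (95% exact Poisson interval 6.20 to 21.0) and 1 read of 5694212 for normal libraries (0.0253 to 5.57). With so few reads no difference between the diets can be read from this arm. MiR-214-3p had 10320 reads in the hyperlipidemic and 2454 in the normal libraries, so it made up nearly all reads of the annotated arms in both groups. Reads from other stretches of the hairpin, outside the 17 annotated bases of the 5p arm, have no row and were not seen. MiR-3120, from the opposite strand, had 4 reads in hyperlipidemic and 1 in normal libraries. These intervals cover counting error only.

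**Figure D1:**
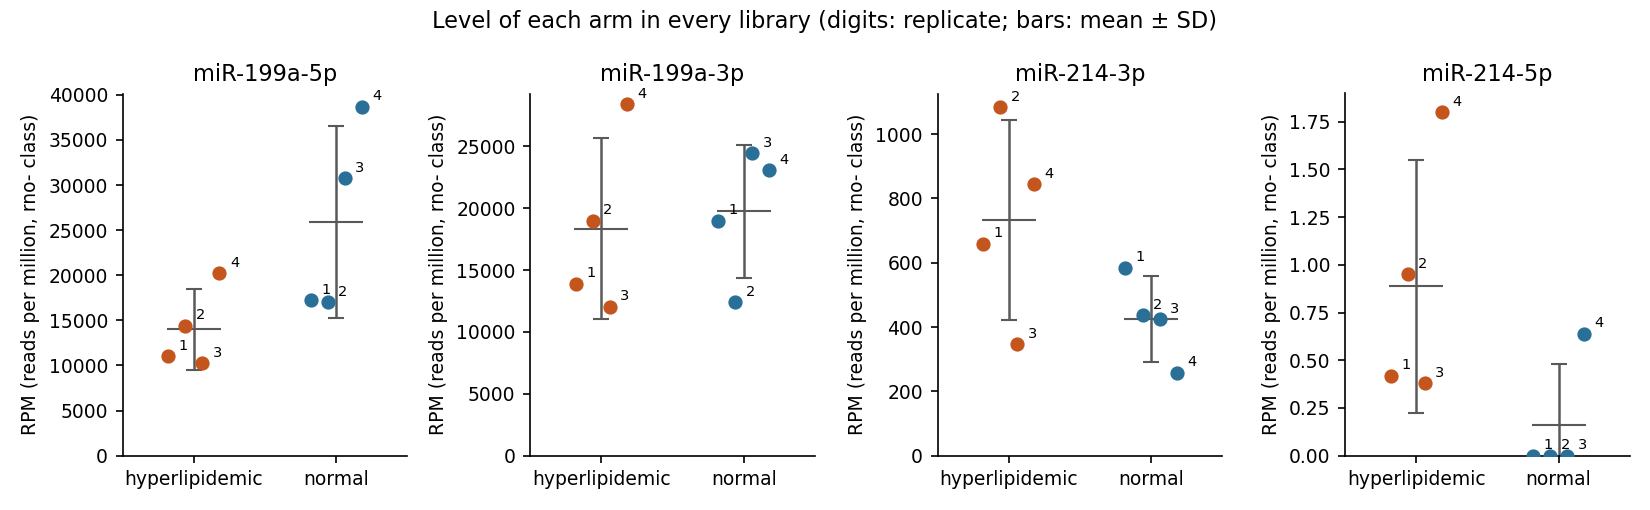
Level of each arm in RPM (vertical axes, from 0) in the hyperlipidemic and normal libraries; points are libraries with their replicate number, bars the mean ± SD. Normal replicates 3 and 4 hold the 2 highest values of miR-199a-5p (30733 and 38687 RPM), while normal replicate 4 holds the lowest value of miR-214-3p (258 RPM).

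In the balance between the arms of miR-199a the diets did not overlap, with relatively more 3p in hyperlipidemic libraries. The difference did not pass after adjustment, which 1 such measure could not do by itself. A ratio within a library does not depend on how that library was scaled. The 3p arm made up 55.7%, 56.8%, 53.9% and 58.4% of the miR-199a reads in hyperlipidemic libraries, against 52.4%, 42.2%, 44.3% and 37.4% in normal libraries. So 3p was the larger arm in every hyperlipidemic library and in normal replicate 1, and 5p was the larger arm in normal replicates 2, 3 and 4. Each share rested on at least 41092 reads, and the widest of the 95% Wilson intervals, that of normal replicate 2, was 41.7% to 42.7%, so counting error was small beside the spread between libraries. The gap between the groups was narrow, with hyperlipidemic replicate 3 at a 3p over 5p ratio of 1.17 and normal replicate 1 at 1.10.

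The ratio of 3p to 5p averaged 1.29 ± 0.0979 in the 4 hyperlipidemic libraries and 0.806 ± 0.214 in the 4 normal ones (SD). On the log2 scale the difference was 0.71, with a two-sided exact permutation p of 0.0286, the smallest that 4 against 4 libraries allow, and 0.114 after adjustment over the 4 measures compared. A single measure at the smallest p cannot go below 0.114 after this adjustment, so nothing is read from its not passing. Without normal replicates 3 and 4 it was 0.52, and without any 1 library it ran from 0.58 to 0.87.

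Among all hairpins, differences in arm ratio of this size were common. Among 127 rno- hairpin names with both arms tested, a comparison added after the values were seen, the miR-199a difference of 0.71 had an SE of 0.27 (95% interval 0.12 to 1.29, unadjusted p = 0.0219, limma adjusted p = 0.174). Without normal replicates 3 and 4 the difference was 0.52 (SE 0.23, limma adjusted p = 0.349). With all libraries miR-199a stood 16th by unadjusted p. No hairpin passed by limma, 28 or 22.0% had an unadjusted p under 0.05, and 15 or 11.8% had groups that did not overlap, among them 11 (8.66%) with the 3p share higher in hyperlipidemic libraries. The median size of the difference, without its sign, was 0.60, and the signed median was 0.01. These hairpins were not equally well measured. The less abundant arm had a mean as low as 2.48 RPM (miR-26a), against 19030 RPM for miR-199a. Over the 8 libraries the log2 arm ratio of miR-199a had an SD of 0.45, against a median SD of 0.68 over all hairpins. A smaller SD than that of miR-199a was found for 26 hairpins.

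The arms of miR-199a were both abundant and nearly even. They were within 2-fold of each other in every library, which held for 4 of the 127 hairpins. The others were miR-3068, miR-872 and miR-452. Of the 5 hairpins with both arms at a mean of at least 1000 RPM, miR-199a was the one whose groups did not overlap. In miR-144, whose 3p arm is the abundant one in red cells, the log2 arm ratio differed by 1.66 (SE 0.57, limma adjusted p = 0.166), and in miR-142 it differed by -0.52 (SE 0.30, limma adjusted p = 0.293). In miR-126a, an endothelial miRNA, it differed by -0.65 (SE 0.42, limma adjusted p = 0.328), and in miR-140, a cartilage miRNA, by 0.01 (SE 0.37, limma adjusted p = 1.00). The 1000 RPM limit was chosen after the values were seen.

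**Figure D2:**
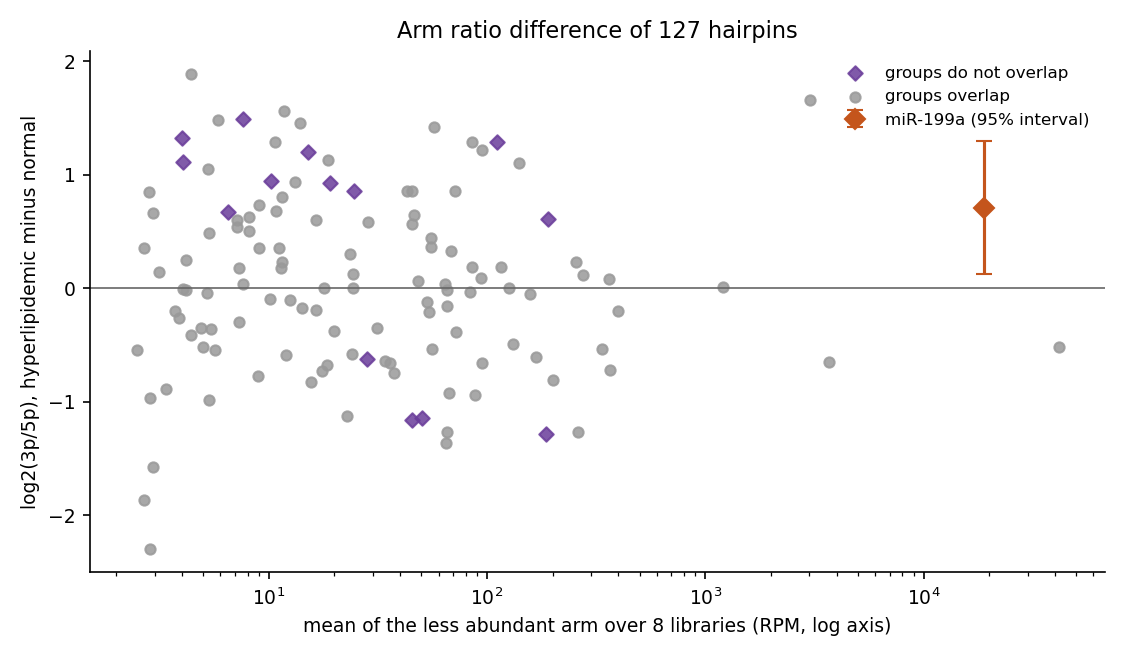
Difference in log2(3p/5p), hyperlipidemic minus normal (vertical axis), against the mean RPM of the less abundant arm (horizontal log axis) for 127 hairpins; diamonds are hairpins whose groups do not overlap and the orange bar is the 95% interval of miR-199a. MiR-199a, at 0.71, lies within the range of the other hairpins in its difference, with its less abundant arm at a mean of 19030 RPM.

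The rows of miR-214-3p and miR-199a-5p, which are annotated to clustered hairpins, did not keep a fixed ratio across libraries. Per 100 reads of miR-199a-5p there were 5.97, 7.52, 3.36 and 4.17 reads of miR-214-3p in hyperlipidemic libraries, against 3.39, 2.56, 1.38 and 0.667 in normal libraries. The groups met at hyperlipidemic replicate 3 and normal replicate 1, and normal replicate 4 was lowest. The log2 ratio averaged -4.32 ± 0.52 for hyperlipidemic and -5.89 ± 1.04 for normal libraries (SD, n = 4 each), a difference of 1.57 with an exact permutation p of 0.0571 (adjusted over 4 measures 0.114). Without normal replicates 3 and 4 that difference was 0.76.

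Against the 3p arm of miR-199a the same ratio was less separated. MiR-214-3p came to 4.74, 5.71, 2.87 and 2.97 reads per 100 of miR-199a-3p in hyperlipidemic libraries, against 3.08, 3.51, 1.74 and 1.12 in normal libraries. The log2 ratio averaged -4.68 ± 0.49 for hyperlipidemic and -5.55 ± 0.76 for normal libraries (SD, n = 4 each), and the difference of 0.87 had an exact permutation p of 0.171 (adjusted 0.200). Without normal replicates 3 and 4 it was 0.25. Normal replicates 3 and 4, which were highest in miR-199a-5p, had the lowest values of both ratios. They also had the lowest red-cell and white-cell shares of the 8 libraries, and the part of these shares in the ratios was not tested. Ligation and gel selection favour some sequences over others, so the ratios between arms are not ratios of molecules in the bone.

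**Figure D3:**
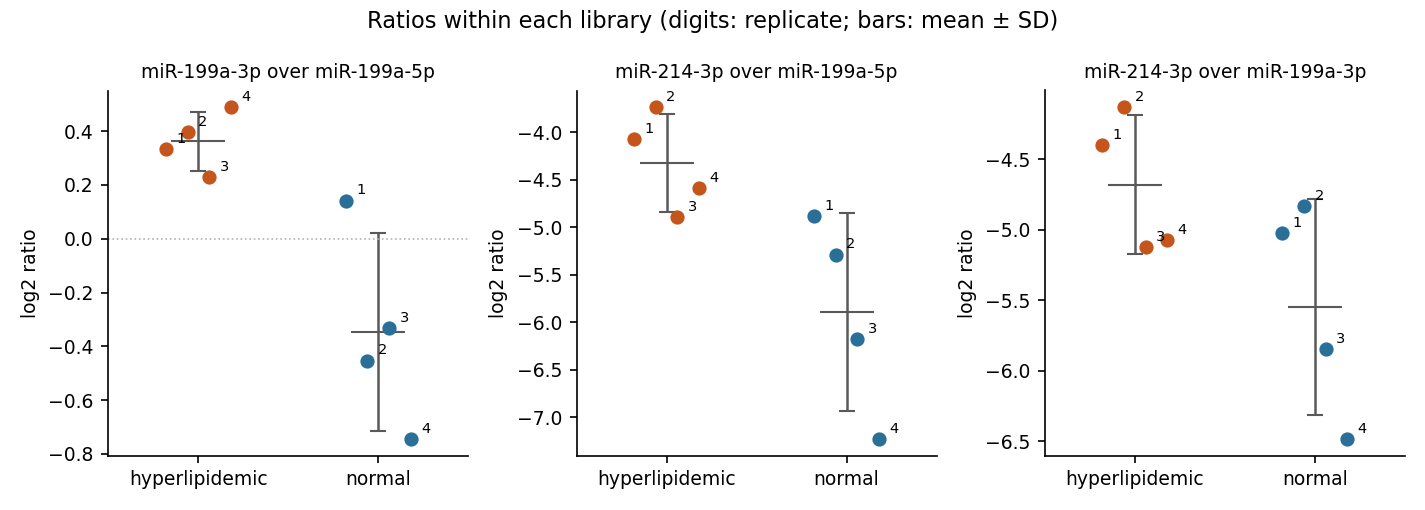
Log2 ratios within each library (vertical axes) in the hyperlipidemic and normal libraries; points are libraries with their replicate number, bars the mean ± SD, and the dotted line marks equal arms. The groups do not overlap in the ratio of miR-199a-3p over miR-199a-5p (mean 0.36 for hyperlipidemic and -0.35 for normal libraries) and overlap in both ratios of miR-214-3p.

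Together the 4 rows held 2.85%, 3.87%, 2.49% and 5.58% of the rno- signal in hyperlipidemic libraries, against 4.14%, 3.36%, 6.51% and 7.11% in normal libraries. Nearly all of it was miR-199a. The mean share was 3.70% ± 1.38 for hyperlipidemic and 5.28% ± 1.81 for normal libraries (SD, n = 4 each), and it did not pass (exact permutation p = 0.200, adjusted 0.200). Counted without the red-cell miRNAs in the denominator it was 4.90% ± 1.45 for hyperlipidemic and 6.03% ± 1.69 for normal libraries (SD, n = 4 each), with an exact permutation p of 0.257. Without normal replicates 3 and 4 the difference in the share of the whole rno- signal came to -0.051 percentage points.

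By mean over the 8 libraries miR-199a-5p and miR-199a-3p ranked 12th and 13th of the 604 rno- rows, miR-214-3p 94th and miR-214-5p 475th. Next above miR-199a-5p was let-7f-5p, with means of 15189 ± 1849 RPM for hyperlipidemic and 24931 ± 9779 RPM for normal libraries (SD, n = 4 each) and a log2 difference of -0.63 (SE 0.30, limma adjusted p = 0.296). Next below miR-199a-3p was miR-191a-5p, at 12976 ± 983 RPM for hyperlipidemic and 24208 ± 7842 RPM for normal libraries (SD, n = 4 each; log2 difference -0.85, SE 0.26, limma adjusted p = 0.153). Groups overlapped for let-7f-5p and not for miR-191a-5p, where 11.6% of all rno- rows had no overlap. By mean over the 8 libraries these neighbours differed from the miR-199a arms by less than the SD of those arms in either group. In hyperlipidemic libraries alone the mean of miR-191a-5p lay further from that of miR-199a-3p, 18331 ± 7322 RPM, than its own SD. In hyperlipidemic libraries the rank of miR-199a-5p ran from 12 to 19 and in normal libraries from 3 to 14, the 3 being normal replicate 4. For miR-214-3p the rank ran from 81 to 99 in hyperlipidemic and from 94 to 126 in normal libraries. By mean it stood just below miR-218a-5p, at 512 ± 150 RPM for hyperlipidemic and 683 ± 120 RPM for normal libraries, and just above miR-542-3p, at 355 ± 120 RPM for hyperlipidemic and 781 ± 217 RPM for normal libraries (SD, n = 4 each). Groups overlapped for miR-218a-5p, while miR-542-3p was lower in hyperlipidemic libraries without overlap.

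The miRNAs most like the 3 arms in pattern, by the mean of Pearson's r over the arms, were let-7e-5p (0.62), miR-24-3p (0.61), miR-708-5p (0.60), miR-28-5p (0.59) and miR-455-5p (0.56). Each r describes log2 values over the same 8 libraries, which share their scaling, and no test was made. The likeness came from the miR-199a arms. For miR-708-5p r was 0.94 with miR-199a-3p, 0.61 with miR-199a-5p and 0.23 with miR-214-3p, and for miR-28-5p it was 0.93, 0.79 and 0.05. Let-7e-5p averaged 434 ± 148 RPM for hyperlipidemic and 478 ± 190 RPM for normal libraries, and miR-24-3p 4133 ± 879 RPM for hyperlipidemic and 4292 ± 570 RPM for normal libraries (SD, n = 4 each).

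Other miRNAs of mesenchymal tissue went both ways. The list holds miRNAs abundant in fibroblasts, smooth muscle and other connective tissue cells, with the miR-199 and miR-214 rows left out. The table has 36 of its arms, of which 31 were tested. On the deposited scale 13 log2 differences were above 0 and 18 below, with a median of -0.04 against -0.20 for all rno- rows, and none passed. With median-of-ratios factors 19 were above 0 and 12 below, with a median of 0.16 against 0.05. An unadjusted p under 0.05 was found for 3 of the 31 arms, where 15.7% of all rno- rows had one. Groups did not overlap for 2 arms, miR-143-5p and miR-152-5p, both lower in hyperlipidemic libraries, where 11.6% of all rno- rows had no overlap. Both counts lie below these shares. The list held 3.73% to 7.16% of the rno- signal in hyperlipidemic and 4.48% to 9.75% in normal libraries, with the maximum in normal replicate 4. No member of it was at 0 in all libraries.

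Of the 8 most abundant members 7 had a log2 difference below 0 on the deposited scale, as miR-199a-5p did. MiR-99a-5p averaged 25583 ± 8607 RPM in hyperlipidemic against 27804 ± 11172 RPM in normal libraries (SD, n = 4 each; log2 difference -0.11, SE 0.33, limma adjusted p = 0.875). MiR-125b-5p differed by -0.03 (SE 0.32, limma adjusted p = 0.955), and miR-143-3p, a smooth muscle miRNA, by -0.46 (SE 0.43, limma adjusted p = 0.566). MiR-152-3p, at 2498 ± 797 RPM for hyperlipidemic and 4397 ± 1689 RPM for normal libraries (SD, n = 4 each), differed by -0.79 (SE 0.36, limma adjusted p = 0.284), miR-100-5p by -0.70 (SE 0.40) and miR-10b-5p, encoded in a Hox cluster, by -0.83 (SE 0.47). MiR-335 differed by -0.25 (SE 0.36). MiR-145-5p, which is clustered with miR-143, had its lowest values, 456 and 481 RPM, in normal replicates 3 and 4 and differed by 0.54 (SE 0.40). MiR-214-3p and miR-145-5p were above 0 on both scales. With median-of-ratios factors miR-99a-5p (0.15), miR-125b-5p (0.23) and miR-335 (0.01) were above 0 as well, while miR-152-3p (-0.52), miR-100-5p (-0.44), miR-10b-5p (-0.57) and miR-143-3p (-0.20) stayed below.

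**Figure D4:**
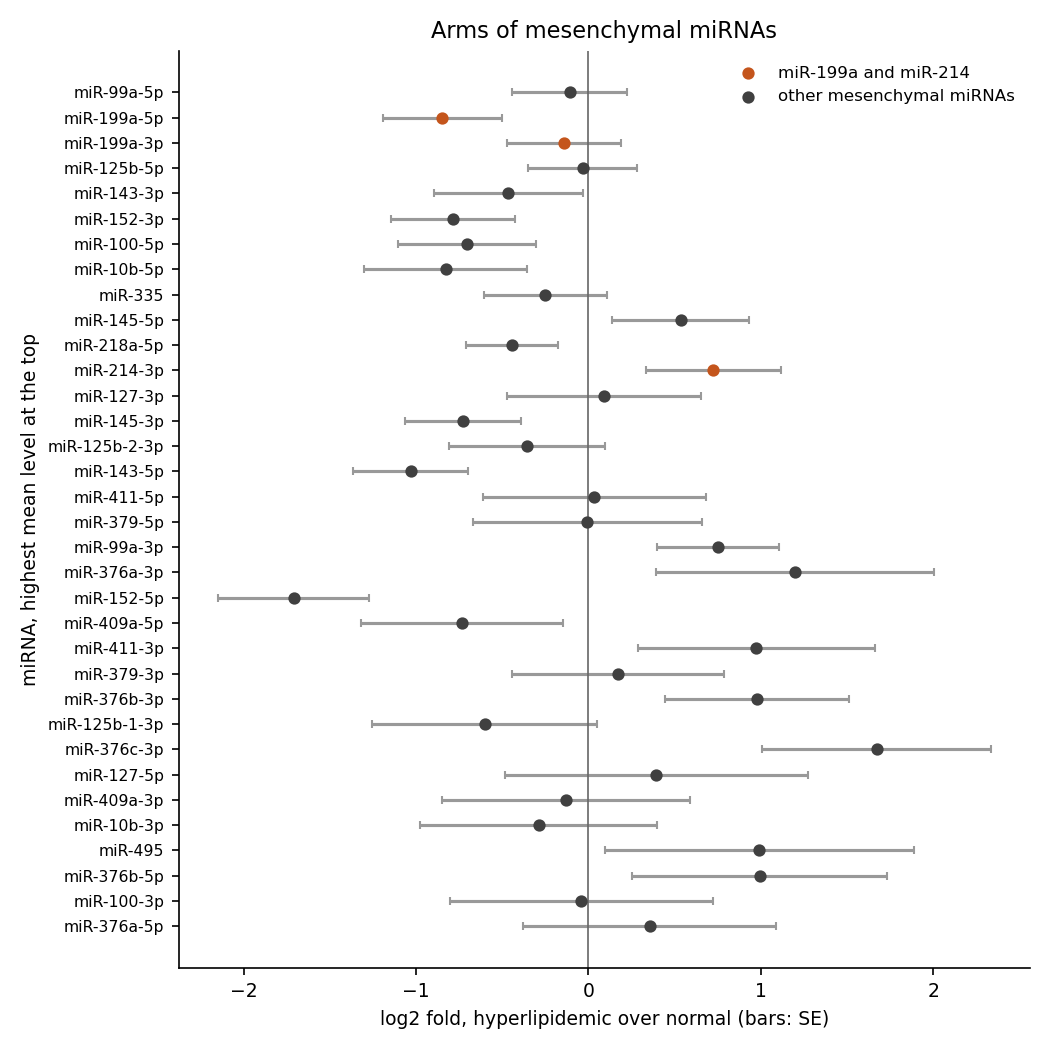
Log2 difference of hyperlipidemic over normal (horizontal axis, bars SE) for the 3 tested miR-199a and miR-214 arms (orange) and 31 other arms of mesenchymal miRNAs (grey), with the highest mean level at the top. MiR-199a-5p (-0.85) and miR-214-3p (0.72) lie on opposite sides of 0 among arms that fall on both sides.

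The arm ratio was also examined in the other mesenchymal hairpins, of which 12 had both arms tested. In 9 the 3p over 5p ratio was higher in hyperlipidemic libraries and in 3 lower, where 66 of all 127 hairpins had it higher, and the median difference was 0.59 against 0.01 over all. In 2 of the 12 the groups did not overlap, against 11.8% of all hairpins. These were miR-152, with a difference of 0.92 (SE 0.29, limma adjusted p = 0.166), and miR-99a, with 0.86 (SE 0.42, limma adjusted p = 0.230). Their minor arms had means of 19.0 and 24.5 RPM, against 19030 RPM for miR-199a. MiR-145 lay the other way (-1.26, SE 0.51, limma adjusted p = 0.179). No mesenchymal hairpin passed. By limma 2 of the 12, miR-152 and miR-145, had an unadjusted p under 0.05, against 22.0% of all hairpins. Several directions rest on few reads. Among the 9 higher, the minor arms of miR-376a, miR-100, miR-10b and miR-409a had means of 2.82, 2.94, 7.14 and 7.18 RPM. Among the 3 lower, those of miR-376b and miR-127 had 4.18 and 7.31 RPM.

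Further lists bear on what miR-214 and miR-199a are known for. Of 12 tested arms of miRNAs described as restraining osteoblasts, 3 were above 0 and 9 below with a median of -0.42 (4 and 8 with a median of -0.16 under median-of-ratios factors). None passed by limma, and 0 had an unadjusted p under 0.05, against 15.7% of all rno- rows. MiR-30c-5p, at 12257 ± 1522 RPM for hyperlipidemic and 16086 ± 1279 RPM for normal libraries (SD, n = 4 each), was lower without overlap (log2 difference -0.40, SE 0.19, limma adjusted p = 0.294). MiR-23a-3p differed by 0.61 (SE 0.33) and miR-204-5p, which targets Runx2, by -0.44 (SE 0.49). Of 13 tested arms of fibrosis and matrix miRNAs 5 were above 0 and 8 below with a median of -0.35 (6 and 7 with a median of -0.08 under median-of-ratios factors). None passed by limma, and 3 had an unadjusted p under 0.05, where the share of all rno- rows was again 15.7%. Among them miR-21-5p, known to be induced by tissue injury, had a log2 difference of -0.89 (SE 0.28, limma adjusted p = 0.153), near that of miR-199a-5p. Unlike miR-199a-5p, it was lower without overlap. Groups did not overlap for 1 of these 13 arms and 1 of the 12 osteoblast arms, against 11.6% of all rno- rows. The collagen-targeting miR-29a-3p and miR-29b-3p differed by -0.03 (SE 0.20) and 1.56 (SE 0.65), the second with its lowest values, 1440 and 1256 RPM, in normal replicates 3 and 4.

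On the deposited scale, tested markers of other cell types lay on both sides of 0 within each list. Of the 5 red-cell arms 2 were above 0 and 3 below, with a median log2 difference of -0.14 (5 and 0 with a median of 0.13 under median-of-ratios factors), although the most abundant, miR-144-3p, differed by 1.52 (SE 0.48). Of the 4 white-cell arms of miR-142 and miR-223, 3 were above 0 and 1 below, with a median of 0.35 and miR-142-5p at 0.84 (SE 0.39). Of the 5 tested lymphocyte arms 2 were above 0 and 3 below, with a median of -0.38, and the most abundant, miR-150-5p, lay on the other side at 0.12 (SE 0.21). Striated muscle miRNAs had 8 of 10 tested arms above 0, with a median of 0.89 and the most abundant, miR-1b, at 0.21 (SE 1.19). They held 0.0271% to 0.866% of the rno- signal in hyperlipidemic and 0.0760% to 0.638% in normal libraries. Endothelial miR-126a had 1 arm above and 1 below 0, with miR-126a-3p at -0.60 (SE 0.29). Epithelial miRNAs had 4 arms above 0 and 3 below, with a median of 0.30 and miR-141-3p at 0.72 (SE 0.45). Cartilage miRNAs had 1 above and 4 below, with a median of -0.08 (3 and 2 with a median of 0.18 under median-of-ratios factors) and miR-140-3p at -0.07 (SE 0.40), which became 0.20 under those factors. No arm in these lists passed by limma, and those with an unadjusted p under 0.05 were 1 red-cell, 1 white-cell, 1 muscle and 2 epithelial arms, where 15.7% of all rno- rows had one. The liver miRNA miR-122 was at most 0.000945% of the signal in any library. The part of these cell types in the miR-199a and miR-214 values was not tested.

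**Figure D5:**
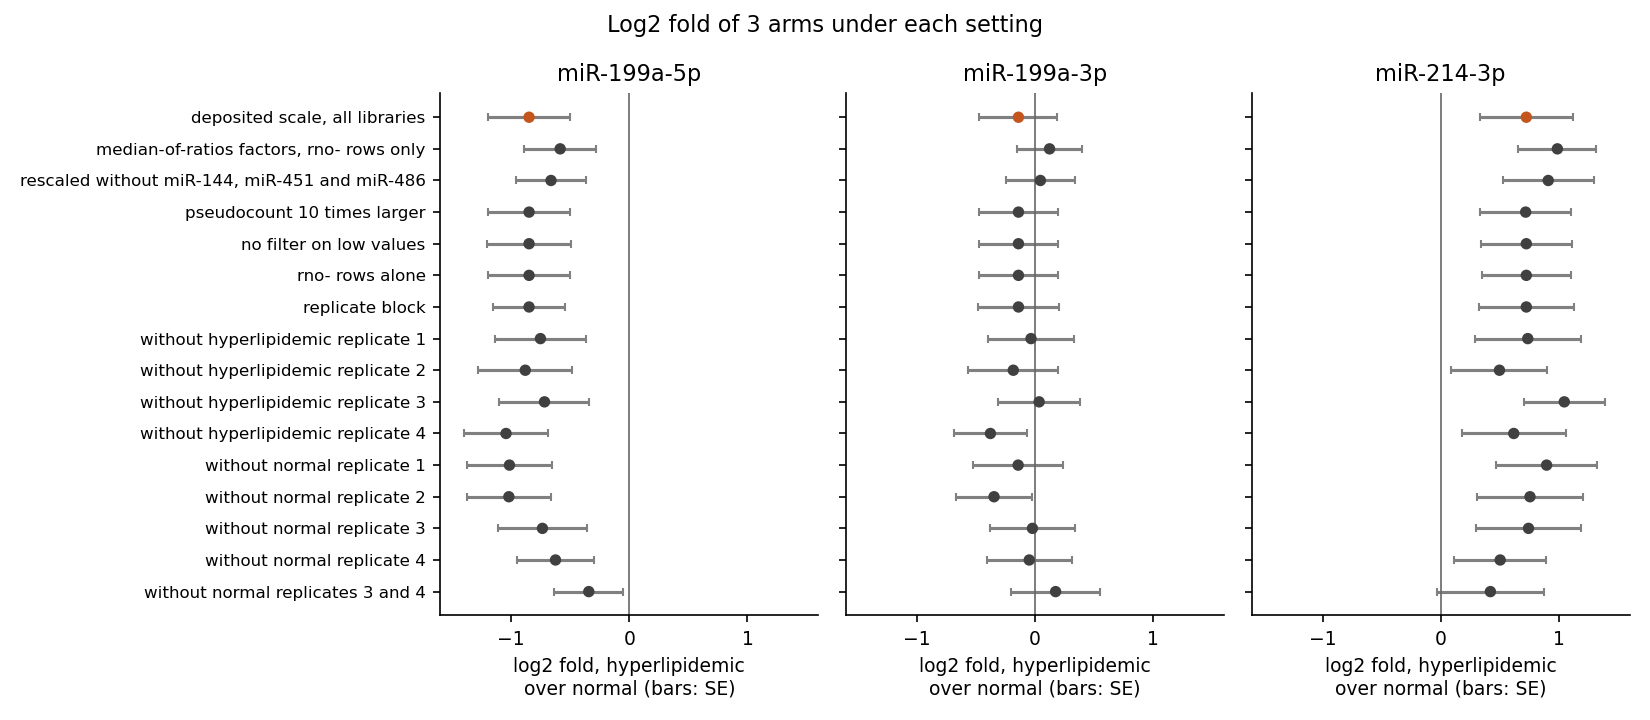
Log2 difference of hyperlipidemic over normal (horizontal axes, bars SE) for miR-199a-5p, miR-199a-3p and miR-214-3p under each setting, with the deposited scale and all libraries in orange. MiR-199a-5p stays below 0 (-1.04 to -0.34) and miR-214-3p above 0 (0.42 to 1.05) in the settings shown, while miR-199a-3p lies on both sides (-0.38 to 0.17).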

How the data were processed

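Small RNA libraries were made by adapter ligation and gel selection of bands of 140 to 160 bp and read as 50-bp single ends, per the labels' protocols. The tool bcl2fastq 1.8.4 and the genome build Rnor_6.0 are listed in the submitters' processing notes. For the aligner, miRNA reference and counting rule, nothing is stated in the sources used. The authors' deposited signal, named FPKM in the title of their table, is in reads per 1000000, scaled by class (rno- or predicted). The rno- rows add up to less than 1000000, and the reads that make up the rest are not stated. Within the rno- class, 100% of values up to 20 reads were whole multiples of 1 step within 0.1 read in each library, which gave the reads. The authors also deposited a ratio (fold), its log2 value and p-values, from a test that the sources used do not state.

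Groups came from the labels. Limma 3.58.1 in R 4.3.3, with a variance trend, tested log2(value + 0.475), two-sided, on 696 rows (396 rno-) above 0 in at least 4 libraries with a mean of at least 2.375 RPM. P-values were adjusted by Benjamini-Hochberg and the threshold was 0.05. Of the 4 members 3 were tested. The 4 measures, 3 ratios and 1 share per library, were compared by exact permutation tests in scipy 1.17.1. The fit was tested on simulated data. The labels state no pairing of libraries by replicate number. The members and lists, matched by name with all arms, were chosen with earlier results of these data known. Named miRNAs were the members, their neighbours in level, the 5 most alike, and the highest means of each list (up to 8 mesenchymal, 3 osteoblast or fibrosis, 1 other). Hairpins, and other arms named for not overlapping, were chosen after their values were seen. Alternatives were scaling, pseudocount, filter, rows, block and libraries.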

Additional observations from a re-analysis of the deposited data

Results flagged for a closer look

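MiR-214-5p was at 0.64 RPM in normal replicate 4 and at 0 in the other 3 normal libraries, so that this value stood far from the rest of its group. It is 1 read. Among the 16 groups of 4 libraries examined this was the single such case. The rule's rate by chance, about 1 in 20, is for continuous values and does not hold here. A lone read beside libraries at 0 is always flagged.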

How the results depend on the processing

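No arm of miR-199a or miR-214 passed by limma in any of its 15 alternatives, nor did the arm ratio among all hairpins in its 11. MiR-199a-5p, miR-214-3p, the 3 ratios and the share kept their sign throughout. MiR-199a-3p did not: its log2 difference of -0.14 became 0.12 with median-of-ratios factors, 0.046 with values rescaled without miR-144, miR-451 and miR-486, and 0.17 without normal replicates 3 and 4, and ran from -0.38 to 0.035 without any 1 library, where the positive value is that without hyperlipidemic replicate 3. The cause was not tested. The 5 rows past the threshold became 3 with rno- rows alone, 1 with rno- rows alone and median-of-ratios factors together, 12 with a pseudocount 10 times larger and 0 with the replicate number as a block, and ran from 0 (without hyperlipidemic replicate 1, 2 or 3) to 12 (without normal replicate 1). With the larger pseudocount 1 hairpin passed in arm ratio, where 0 had. Same-numbered libraries deviated together little or not at all (correlations 0.19, -0.08, -0.02 and 0.15 over the rows tested). Such correlations cannot exclude a pairing, and the labels state none. The block left the log2 differences of the arms at -0.85, -0.14 and 0.72. The planned count models and a TMM scaling were not run on all rows, since the 2 classes have steps of their own. They were not tried on the rno- rows alone either, although the reads of that class were recovered. For the ratios and the share, exact tests with fewer libraries or the block could not pass whatever the values: the smallest p they allow is 0.0571 without 1 library, 0.133 without normal replicates 3 and 4 and 0.125 with the block, so nothing on stability is read from them. With all libraries a single measure at the smallest p of 0.0286 could not pass by itself either, after adjustment over 4 measures. The share without miR-144, miR-451 and miR-486 in its denominator had an exact permutation p of 0.257. MiR-214-5p is limited by its few reads.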
